A study of Mus musculus with 16 samples.

Results

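The drug metabolism enzymes of the liver outside the Cyp2a and Cyp2b families were followed across 2 diets and 2 feeding states. They were taken by name from the gene table: protein-coding genes of the Cyp1a, Cyp2c, Cyp2d, Cyp2e, Cyp2f, Cyp2j, Cyp2u and Cyp3a families of cytochromes P450, of the Ugt1a, Ugt2a, Ugt2b and Ugt3a families of UDP-glycosyltransferases, of the Gsta, Gstk, Gstm, Gstp and Gstt families of glutathione S-transferases, and of the sulphotransferases named Sult1 to Sult5. A mean of at least 10 raw counts over the 16 libraries was also asked for, and the rule used no comparison between groups, although it was set with earlier results of these data known. Of 46078 genes in the table, 104 carried such a name and 74 passed the count limit: 31 P450s, 18 Ugt, 18 Gst and 7 Sult genes. The least counted of the 74 were Ugt1a2 (mean 16.0 counts) and Ugt1a10 (17.9), and the most counted of the 30 left out were Cyp2d12 (9.31) and Cyp3a16 (6.50). Of those 30, 7 had no count in any library, where 3 counts would be 0.0536 to 0.0767 CPM (counts per 1000000 scaled counts). For Ugt2a1 and Ugt2a2 among them this limit says little, since 98.8% and 94.5% of their exon bases lie in exons of each other or of Gm43638, and reads there may not have been assigned. All 74 genes passed the filter on low counts and were tested.

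Livers came from male mice of the strain written C56B6/J in the sample labels and C57BL6/J in the study's methods, 8 weeks old when the diets began. Every group had been on its food for 16 weeks, either control diet (CD) or high-fat diet (HFD, with 60% of kcal from fat). Livers were taken from fed (ad libitum) mice or after a 16 h fast. The 4 groups, CD fed, CD fasted, HFD fed and HFD fasted, each held 4 libraries of polyadenylated RNA. The study's legend speaks of livers from mice, with that number in each group. Labels and methods do not tie each library to a mouse. The p-values measure the spread between these libraries, which may in part be technical. The design asks how fasting alters these enzymes in each diet, how HFD alters them in each feeding state, and whether the fasting response differs between diets.

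The liver clears drugs and other foreign compounds in steps. Cytochromes P450 insert oxygen into a lipophilic molecule, using electrons passed on by cytochrome P450 reductase. Transferases then attach a polar group: Ugt1a, Ugt2a and Ugt2b enzymes add glucuronic acid and those of the Ugt3a family other sugars, Gst enzymes add glutathione to reactive electrophiles, and Sult enzymes add sulphate. The same families handle steroids, bile acids, fatty acids, bilirubin and haem-derived or dietary compounds. Many of their genes, though not all, lie in tandem arrays. Many are also known targets of the nuclear receptors CAR (Nr1i3) and PXR (Nr1i2) or of the aryl hydrocarbon receptor (Ahr). Other known regulators are NRF2 (Nfe2l2), the activator of antioxidant genes, and the sex-dependent pattern of growth hormone. Several P450s, among them Cyp1a2, Cyp2e1 and Cyp2c29, are known for a pericentral position in the liver lobule.

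Library totals ranged from 41364448 to 57583153 counts, and the 74 genes took 1.73% to 3.12% of a library. Over the 68 members with a mean of at least 100 counts, the median coefficient of variation within a group was 16.3% in CD fed, 20.4% in CD fasted, 22.1% in HFD fed and 29.0% in HFD fasted livers, against 9.28% to 11.8% over all 11004 genes with such a mean, which were not matched to the members in their counts. Some libraries stood apart. HFD fed 4 was the lowest of its group for 40 of the 68 members and HFD fasted 4 for 31, CD fasted 2 was the lowest of its group for 42 and CD fasted 3 the highest for 36. HFD fasted 2 was the highest of its group for 44. The summed level of 8 pericentral marker genes that are not members was also the lowest of the group in HFD fed 4 (1880 CPM against 3005 to 3220), in HFD fasted 4 (2654 against 3604 to 4476) and in CD fed 1 (2309 against 3232 to 3504). The same sum was higher in CD fasted livers (3657 to 4352 CPM) than in CD fed ones (2309 to 3504) without overlap, although of its 8 genes 1 rose (Oat) and 2 fell (Gulo and Rgn) by the test. It was 1880 to 3220 CPM in HFD fed and 2654 to 4476 CPM in HFD fasted livers. The sum of 7 periportal markers was 3770 to 5008 CPM in CD fed, 3313 to 5178 in CD fasted, 3233 to 6060 in HFD fed (the highest in HFD fed 4) and 1890 to 4092 CPM in HFD fasted livers. Of these 7 genes Hsd17b13 rose with fasting in CD, Sds fell with fasting in HFD and Hal was lower with HFD in fasted mice. Of the pericentral genes Oat also rose with fasting in HFD, and Rhbg was lower with HFD in fed mice.

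The sum of 5 hepatocyte markers was lower in fasted livers, at 76669 to 105065 against 100858 to 131264 CPM in CD and, without overlap, at 67046 to 99055 against 105394 to 131857 CPM in HFD. By edgeR 1 of the 5 passed in each diet, Ttr in CD and Hnf4a in HFD. By DESeq2 2 passed in CD (Serpina1c and Ttr) and 4 in HFD (Alb, Hnf4a, Serpina1c and Ttr), and by limma-voom 1 and 3. Some lists of other cell types also moved. Endothelial markers summed to 147 to 194 CPM in CD fasted against 198 to 223 CPM in CD fed livers (2 of 5 fell, Pecam1 and Stab2, and the same 2 were higher with HFD in fasted mice). Of 5 Kupffer cell and macrophage markers 2 fell with fasting in CD (Adgre1 and Clec4f), with sums of 94.6 to 158 against 143 to 280 CPM. Stellate cell markers summed to 114 to 190 CPM in CD fasted, 182 to 233 CPM in CD fed and 205 to 299 CPM in HFD fasted livers (of 5 genes Reln was called, lower with fasting in CD and higher with HFD in fasted mice). Small intestine markers summed to 156 to 236 CPM in CD fasted against 65.4 to 92.8 CPM in CD fed livers and to 130 to 160 against 91.7 to 113 CPM in HFD. Of those 4 genes Fabp2 alone was counted enough to be tested and rose in both diets. Of 4 erythrocyte markers Alas2 fell with fasting in both diets and was higher with HFD in fasted mice. Of 4 pancreas markers Cela1 alone was counted enough to be tested and fell with fasting in both diets. Kidney markers summed to at most 0.352 CPM, and adipocyte markers to 70.2 CPM in 1 HFD fasted library against at most 6.95 CPM outside that group. Of those 4 genes Cfd alone was tested, and it was called higher with fasting in HFD by edgeR and DESeq2 and not by limma-voom. The part of zonation or of cell make-up in the results below was not tested. In whole liver fewer cells of a type and less RNA per cell cannot be told apart.

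Levels were set beside each other between genes as CPM per kilobase of exon, with the exons of all annotated transcripts merged. Merged lengths exceed those of relatives for some genes, at 5093 bases for Cyp3a11 against 2083 for Cyp3a25. They are 4344 for Gsta3 against 1266 for Gsta4. Levels of such genes may be set too low, and the order given holds for this scale alone. Cyp2e1 stood at 2666 ± 529 in CD fed livers (SD, n = 4), above every other member. Gstm1 followed at 894 ± 115, then Cyp2f2 at 695 ± 66.4 and Gstp1 at 497 ± 26.3. Cyp3a11 came next at 479 ± 92.9, which differed from Gstp1 by less than its SD. The leading glucuronosyltransferase was Ugt2b5 (330 ± 47.3) and the leading sulphotransferases were Sult2a8 (174 ± 15.01) and Sult1a1 (164 ± 19.3). On this scale the levels of these 2 Sult genes were within their spread of each other, with merged lengths of 3284 and 1507 bases. All CPM values below use TMM-scaled totals and are not per length.

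Some of these genes are near copies. When each transcript was read in windows of 100 bases, 32 of 74 members shared no window with any other gene and 52 shared under 10%, while 9 shared at least 50%. Those 9 were the 8 Ugt1a genes, which use common last exons, and Gsta1 (80.6%, with Gm3776, Gsta2 and Gm10639). Shares were 46.9% for Gstp2 and 25.1% for Gstp1, 34.4% and 35.4% for Cyp2c40 and Cyp2c69, 23.7% and 19.8% for Cyp2c67 and Cyp2c68, 28.4% for Gsta2, 24.7% for Ugt2b5 and 24.2% for Ugt2b38. Values of these genes are uncertain by the reads that the counting could have given to a copy.

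Fasting in CD was the comparison with the most changes. Of 74 members, 6 rose and 23 fell (39.2% against 25.2% of all 15075 genes tested by edgeR's quasi-likelihood test at an adjusted p under 0.05, of which 13.7% higher and 11.5% lower), and 28 had groups that did not overlap, against 25.4% of all genes. In HFD the same fast called 4 higher and 7 lower (14.9% against 8.86%, of which 4.78% higher and 4.07% lower), with 10 not overlapping against 16.7% of all genes. HFD in fed mice called 1 higher and 16 lower (23.0% against 7.50%, of which 3.28% higher and 4.22% lower; 25 not overlapping, against 15.7% of all genes). HFD in fasted mice called 1 higher and 4 lower (6.76% against 7.70%, of which 3.05% higher and 4.65% lower; 6 not overlapping, against 14.0%), a share near the background. The median log2 change of the members was -0.35, -0.11, -0.31 and 0.05 in these 4 comparisons, against -0.01, 0.01, 0.01 and 0.01 over all genes. Scaling by total counts gave 3 higher and 13 lower for HFD in fed mice and 4 higher and 3 lower for HFD in fasted mice. In the latter it moved the median of all genes to 0.17. The excess of calls lay on the lower side in 3 comparisons: 23 of 74 members fell with fasting in CD against 11.5% of all genes, 7 with fasting in HFD against 4.07%, and 16 were lower with HFD in fed mice against 4.22%. The first and the last share the CD fed libraries.

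**Figure D1:**
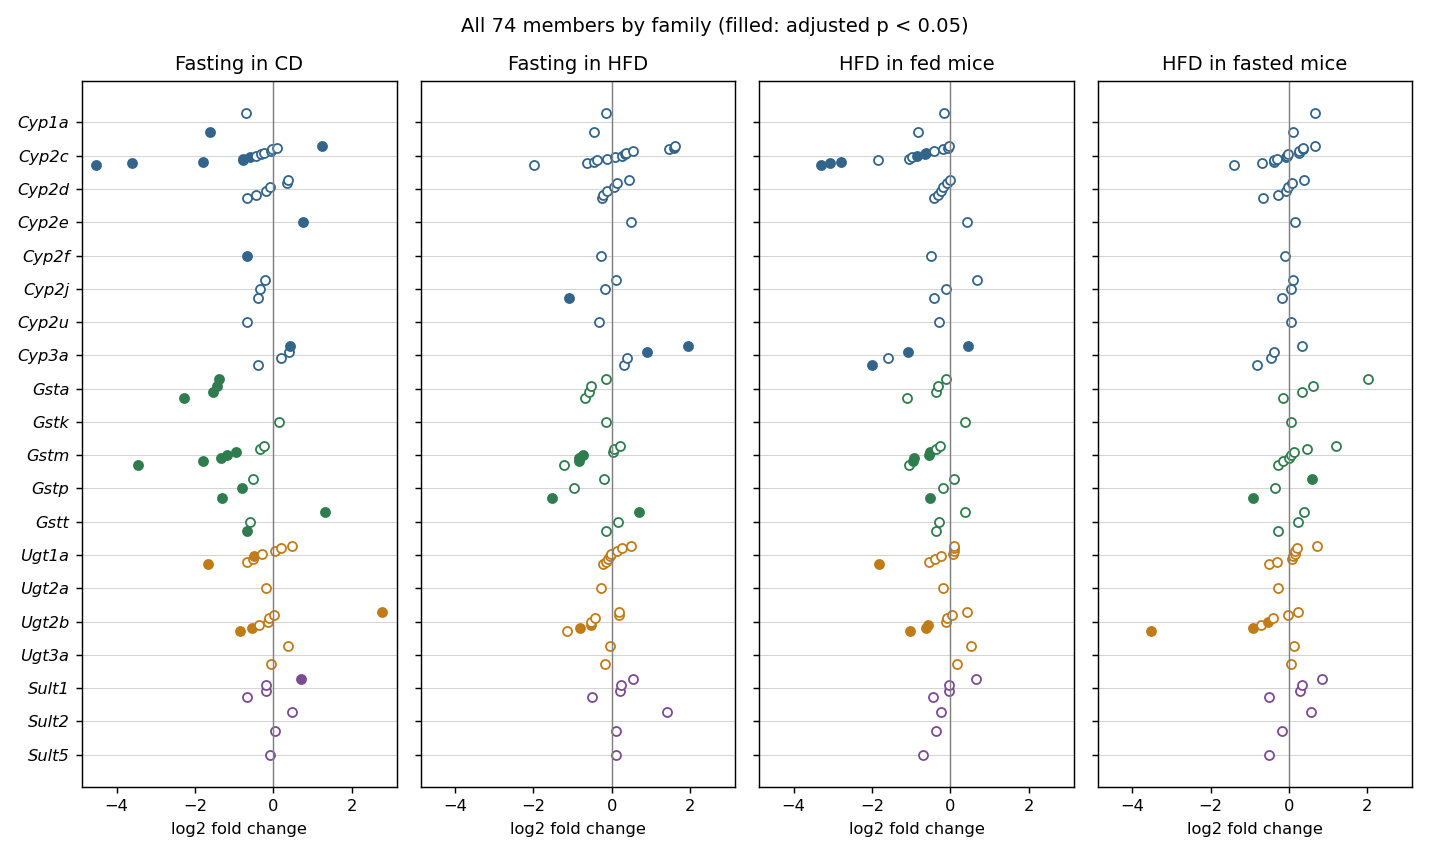
Log2 fold change of each of the 74 members (x axis) in each pairwise comparison, by family (rows), with blue for P450s, green for Gst, ochre for Ugt and purple for Sult genes; filled circles had an adjusted p under 0.05. In CD, 12 of 18 Gst genes are filled to the left of 0 with fasting, and in fed mice the Cyp2c points lie at or below 0 with HFD, 2 of them only with this scaling.

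The glutathione S-transferases had the largest share of calls of the 4 classes with fasting in either diet (13 of 18 in CD, against 25.2% of all genes, and 5 of 18 in HFD, against 8.86%). With fasting in CD, 12 of 18 fell (11.5% of all genes) and 1 rose, with a class median of -1.07 on the log2 scale, and the summed level of the 18 genes went from 4432 ± 389 to 2113 ± 336 CPM (SD, n = 4 each; a sum, not tested). All 4 Gsta genes, 5 of 7 Gstm genes, 2 of 3 Gstp genes and Gstt1 were among those that fell, while Gstt2 rose and Gstk1, the mitochondrial and peroxisomal kappa form, was at 95.6 ± 11.6 and 107 ± 15.3 CPM with no call. With fasting in HFD 4 fell (4.07% of all genes) and 1 rose, and the sum went from 3588 ± 416 to 2271 ± 480 CPM. The class direction held with DESeq2's size factors and with total counts as the scaling.

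The mu class, 7 genes in tandem on chromosome 3 (107895821 to 108044894, GRCm38), detoxifies epoxides and other electrophiles. Gstm1, its most abundant member, stood at 1372, 1505, 1287 and 1102 CPM in CD fed libraries 1 to 4 and at 533, 493, 649 and 426 CPM in CD fasted libraries. In HFD it stood at 858, 1107, 1106 and 1042 CPM fed and at 460, 707, 468 and 646 CPM fasted. No fasted library reached the lowest fed library of its diet, and the fall was 1.33 ± 0.16 (SE) on the log2 scale in CD (adjusted p = 6.2e-05, a loss of 60.1%) and 0.85 ± 0.16 in HFD (adjusted p = 0.00628). Gstm3 was at 53.4, 48.1, 46.6 and 36.4 CPM in CD fed and at 4.41, 2.61, 5.87 and 3.76 CPM in CD fasted libraries. In HFD it was at 15.4, 22.4, 20.5 and 31.1 CPM fed and at 3.43, 9.09, 4.38 and 21.6 CPM fasted. The CD groups were far apart, with a fall of 3.46 ± 0.47 (adjusted p = 0.000127), whereas HFD fasted 4 lay within the range of HFD fed libraries and the change there, -1.21 ± 0.43, did not pass (adjusted p = 0.0907), though it did by limma-voom and without HFD fasted 4. Part of its reads could belong to copies, since 13.8% of its windows are shared.

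Gstm6 was at 97.5, 127, 109 and 100.4 CPM in CD fed and at 33.9, 22.3, 38.3 and 29.6 CPM in CD fasted libraries, and in HFD at 57.0, 64.3, 60.6 and 46.6 CPM fed and at 22.5, 47.9, 29.7 and 28.6 CPM fasted. CD fed livers were above all others. It fell by 1.80 ± 0.21 with fasting in CD (adjusted p = 3.16e-05), by 0.83 ± 0.20 in HFD (0.0207) and by 0.92 ± 0.20 with HFD in fed mice (0.0123). Gstm7 changed in the same 3 comparisons by -0.95 ± 0.11, -0.73 ± 0.11 and -0.51 ± 0.11, from 60.5 ± 6.76 CPM in CD fed livers (adjusted p = 4.47e-05, 0.00175 and 0.013). Gstm2 was at 50.9, 68.8, 62.5 and 51.6 CPM in CD fed and at 30.5, 21.2, 28.6 and 22.7 CPM in CD fasted libraries, and in HFD at 29.8, 27.2, 37.8 and 26.9 CPM fed and at 24.9, 50.4, 29.4 and 36.7 CPM fasted. It fell by 1.18 ± 0.19 with fasting in CD (adjusted p = 0.000562) and by 0.94 ± 0.19 with HFD in fed mice (0.00899), and the HFD groups overlapped. Gstm4 was lower with HFD in fed mice by 0.54 ± 0.16 (adjusted p = 0.0485), and Gstm5, a form best known from brain and testis, was at 6.16 to 7.41 CPM on average in every group with no call. The Gstm6 call in HFD was lost without HFD fed 1, HFD fed 2, HFD fasted 1 or HFD fasted 3 (adjusted p up to 0.0601), and the Gstm4 call in 11 of 16 refits without 1 library (up to 0.138, without CD fed 2).

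The alpha class carries much of the transferase activity toward lipid peroxidation products and binds bilirubin and bile acids. Gsta3 on chromosome 1, its most abundant member, fell by 1.44 ± 0.28 with fasting in CD, from 1447 ± 187 to 532 ± 199 CPM (adjusted p = 0.00183), and was at 1172 ± 259 and 818 ± 326 CPM in HFD, where the change of -0.52 ± 0.27 did not pass (0.25). Gsta4, the form most active on 4-hydroxynonenal, fell in CD by 1.38 ± 0.33 (adjusted p = 0.0076), from 56.7 ± 6.49 to 21.7 ± 10.01 CPM. Gsta1 was at 4.65, 4.49, 5.66 and 3.09 CPM in CD fed and at 0.802, 0.742, 1.02 and 1.11 CPM in CD fasted libraries, and in HFD at 1.84, 1.86, 4.37 and 8.53 CPM fed and at 0.521, 2.79, 1.13 and 10.5 CPM fasted. The CD groups did not overlap (-2.27 ± 0.73, adjusted p = 0.0321), while in HFD both libraries numbered 4 stood above the rest. Gsta2 fell in CD by 1.54 ± 0.52 (adjusted p = 0.0397), with overlapping groups. Both of these calls were weak: that of Gsta1 was lost without any CD library but CD fed 4 (adjusted p up to 0.0796), and that of Gsta2 without any but CD fed 4 and CD fasted 3 (up to 0.103), while without CD fasted 3 the change of Gsta2 was -2.30.

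The pi class lies on chromosome 19 (4035407 to 4059569) and its main product, Gstp1, is a male-biased liver enzyme in mice. Gstp1 was at 790, 772, 712 and 805 CPM in CD fed and at 429, 434, 420 and 482 CPM in CD fasted libraries, and in HFD at 761, 884, 613 and 445 CPM fed and at 331, 162, 246 and 200.2 CPM fasted. The HFD fasted livers were the lowest of all 4 groups without overlap. The fall with fasting was 0.80 ± 0.20 in CD (adjusted p = 0.0098) and 1.52 ± 0.21 in HFD (0.00069, a loss of 65.2%), the difference between the 2 falls was -0.72 ± 0.29 and was not called (0.17), and HFD lowered it in fasted mice by 0.91 ± 0.20 (0.0154, and 0.0512 without HFD fasted 4). This last call was also lost with only the 2 groups compared (0.0579). Gstp3, which shares no window with Gstp1, was at 14.9, 21.2, 14.0 and 14.3 CPM in CD fed and at 7.78, 5.63, 6.75 and 5.94 CPM in CD fasted libraries, and in HFD at 10.2, 11.2, 11.6 and 12.3 CPM fed and at 8.22, 12.3, 8.89 and 9.84 CPM fasted. It fell with fasting in CD by 1.30 ± 0.15 (adjusted p = 3.93e-05) and was lower with HFD in fed mice by 0.51 ± 0.15 (0.0494) but higher with HFD in fasted mice by 0.59 ± 0.15 (0.0293). The 2 diet calls were fragile: the former was lost in 12 of 16 refits without 1 library (adjusted p up to 0.167, without CD fed 2) and the latter without CD fasted 2, 3 or 4 or HFD fasted 2 or 4 (up to 0.0793).

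The theta class, on chromosome 10, went both ways. Gstt2 rose with fasting in both diets, from 49.2 ± 9.43 to 124 ± 23.0 CPM in CD (1.33 ± 0.18, adjusted p = 0.00013, 2.51-fold) and from 63.2 ± 12.0 to 102 ± 19.5 CPM in HFD (0.69 ± 0.18, 0.0272), and its fed and fasted libraries did not overlap in either. Gstt1 of the same class fell in CD by 0.67 ± 0.21 (adjusted p = 0.0297), with overlapping groups. The Gstt2 call in HFD was lost without HFD fed 1 or 3 or HFD fasted 1 or 4 (adjusted p up to 0.0911), and the Gstt1 call without any CD library but CD fed 1 and CD fasted 3 (up to 0.0921).

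**Figure D2:**
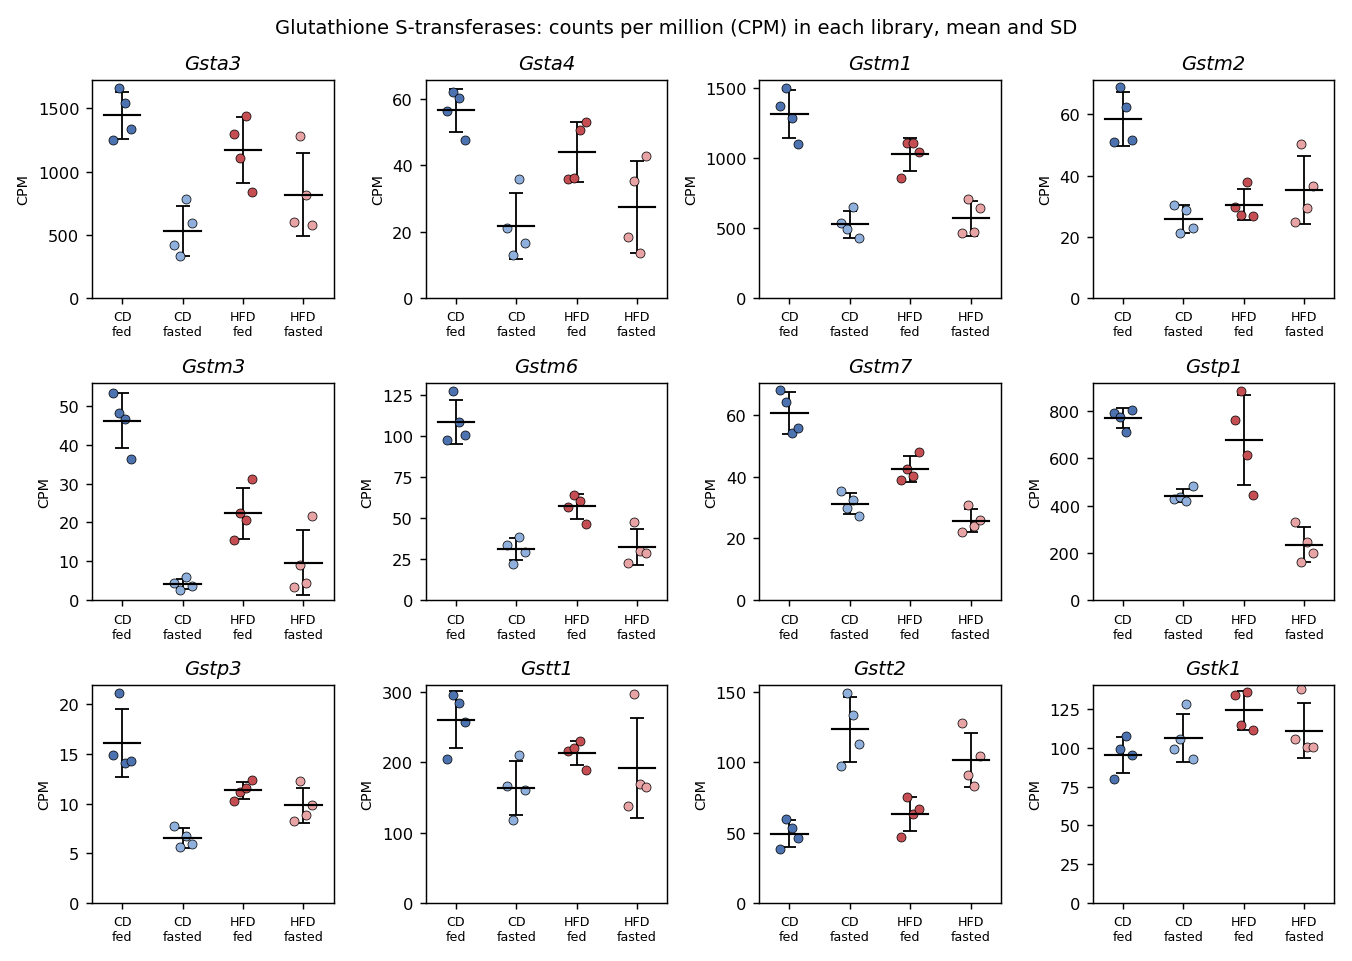
CPM (y axis, from 0) of 12 glutathione S-transferase genes in each of the 16 libraries by group (x axis); points are libraries in the order 1 to 4, horizontal lines group means and bars ± 1 SD (n = 4). Gstm1 and Gstm7 are lower in fasted than in fed livers of both diets, Gstm3 ranges from 36.4 to 53.4 CPM in CD fed and from 2.61 to 5.87 CPM in CD fasted livers, and Gstt2 runs the other way.

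Of the 31 P450s, 10 were called with fasting in CD (32.3% against 25.2% of all genes), 4 with fasting in HFD (12.9% against 8.86%) and 8 with HFD in fed mice (25.8% against 7.50%). With HFD in fasted mice 0 of 31 passed, against 7.70% of all genes (3 at an unadjusted p under 0.05, 1 by DESeq2 and 0 by limma-voom). By edgeR, Cyp3a13 passed there with total counts as the scaling and Cyp2c68 without HFD fed 4. The Cyp2c family, the one with the most genes, gave 6 of the 10 calls with fasting in CD and 5 of the 8 with HFD in fed mice. As a share of its genes Cyp3a was ahead with HFD in fed mice (3 of 4 against 5 of 13) and with fasting in HFD (2 of 4 against 1 of 13). The 13 Cyp2c genes lie on chromosome 19, all but Cyp2c23 in 1 array, and hydroxylate fatty acids, arachidonic acid and many drugs. Their summed level went from 2770 ± 234 CPM in CD fed to 1462 ± 390 CPM in CD fasted, 1597 ± 396 CPM in HFD fed and 1467 ± 638 CPM in HFD fasted livers (sums, not tested). Fasting lowered 5 of 13 (11.5% of all genes) and raised 1 in CD, and raised 1 in HFD (4.78% of all). The diet lowered 5 in fed mice (4.22% of all), and in fasted mice 0 of 13 passed by edgeR (2 at an unadjusted p under 0.05, and Cyp2c67 by DESeq2). In fed mice all 13 had negative log2 changes with HFD, with a median of -0.86, and 11 of 13 with total counts as the scaling, under which Cyp2c37 and Cyp2c38 turned positive.

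Cyp2c70, the enzyme that makes the 6-hydroxylated muricholic acids of mouse bile, was at 539, 295, 353 and 351 CPM in CD fed and at 28.02, 5.30, 18.9 and 14.95 CPM in CD fasted libraries. In HFD it was at 124, 101, 76.4 and 127 CPM fed and at 3.88, 66.0, 9.81 and 27.8 CPM fasted. Each fed group was above the fasted group of its diet. The fall with fasting in CD was 4.52 ± 0.70 (adjusted p = 0.00036, a loss of 95.6%) and the largest of any member, while the fasting change in HFD (-2.00 ± 0.63, 0.0596) and the diet change in fed mice (-1.84 ± 0.62) did not pass by edgeR. The former was called by DESeq2, by limma-voom and without CD fasted 2 or HFD fasted 2. The latter was called by DESeq2, with only the 2 groups compared, and without HFD fasted 1 or 2. Cyp2c55, known as a strongly CAR- and PXR-inducible hydroxylase of arachidonic acid, was at 8.42, 5.64, 7.17 and 3.91 CPM in CD fed and at 0.707, 0.435, 0.492 and 0.413 CPM in CD fasted libraries. In HFD it was at 1.14, 0.482, 1.03 and 0.968 CPM fed and at 0.260, 0.657, 0.419 and 1.27 CPM fasted. CD fed livers stood above the other 3 groups, which overlapped, and it fell with fasting in CD by 3.61 ± 0.41 (adjusted p = 2.88e-05) and with HFD in fed mice by 2.79 ± 0.38 (0.000704).

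Cyp2c29, the most abundant of the family, was at 649, 873, 955 and 851 CPM in CD fed and at 205, 140, 374 and 244 CPM in CD fasted libraries, and in HFD at 542, 348, 559 and 161 CPM fed and at 236, 609, 250.4 and 145 CPM fasted. CD fed livers were above both CD fasted and HFD fed livers, and HFD fasted 2 stood above the other libraries of its group. It fell with fasting in CD by 1.79 ± 0.43 (adjusted p = 0.0077) and had no call in HFD or for the diet. Cyp2c23, an arachidonic acid epoxygenase, fell in CD from 313 ± 35.0 to 184 ± 57.0 CPM (-0.77 ± 0.19, 0.00982), and in HFD the change of -0.64 ± 0.19 did not pass by edgeR with TMM scaling (0.0519). It passed by DESeq2, by edgeR with DESeq2's size factors or with only the 2 groups compared, and without CD fasted 2, CD fasted 3, HFD fed 3 or HFD fasted 4. Cyp2c39, a retinoic acid hydroxylase, was the exception. It was at 1.49, 2.63, 2.36 and 1.48 CPM in CD fed and at 4.48, 5.32, 4.98 and 4.09 CPM in CD fasted libraries, and in HFD at 1.12, 0.744, 2.26 and 1.80 CPM fed and at 3.90, 6.44, 3.79 and 3.82 CPM fasted. It rose without overlap in both diets, by 1.24 ± 0.29 in CD (adjusted p = 0.00615) and by 1.60 ± 0.30 in HFD (0.00575).

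The neighbours Cyp2c67, Cyp2c68, Cyp2c40 and Cyp2c69 were all lower with HFD in fed mice. Cyp2c40 was at 7.71, 6.81, 5.90 and 4.95 CPM in CD fed and at 0.762, 1.29, 0.755 and 0.217 CPM in HFD fed libraries, and in fasted livers at 2.71, 6.55, 1.69 and 3.87 CPM in CD and at 1.74, 5.62, 1.68 and 0.242 CPM in HFD. The fed groups were apart (-3.07 ± 0.67, adjusted p = 0.013) and the fasted groups overlapped. Cyp2c67 fell from 313 ± 35.0 to 172 ± 29.2 CPM with HFD in fed mice (-0.86 ± 0.14, 0.0018) and to 206 ± 30.3 CPM with fasting in CD (-0.60 ± 0.14, 0.00479). Cyp2c68 went from 142 ± 16.7 to 91.7 ± 16.2 CPM (-0.63 ± 0.11, 0.00454) and Cyp2c69 from 3.09 ± 1.17 to 0.313 ± 0.323 CPM (-3.31 ± 0.80, 0.022). The Cyp2c69 call was lost without CD fed 1 or 2 or HFD fed 1 or 3 (adjusted p up to 0.0677), and its change was -4.27 without HFD fed 2. Cyp2c40 and Cyp2c69 are the 2 of 14 listed female-biased liver genes that were counted enough to be tested in these male livers.

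The promoters of these 4 neighbours and of Cyp2c70 share a word that is rare elsewhere, and they are shown because they hold it and each of these 5 genes was called in at least 1 comparison. Of all 31 P450s, 16 were called in at least 1 pairwise comparison. CAAAGTCCA, a sequence bound by the liver nuclear receptor HNF4A, was searched on both strands in the 250 bases before the start that RefSeq gives (GRCm38.p6). It was found in 6 of 27 P450 promoters and in 0 of 38 others among the 65 members that had one, against 0.381% of the promoters of all 27025 genes. The 4 neighbours are near copies in tandem, alike in the bases around the word, so that they do not count as 4 separate occurrences. The sixth was that of Cyp3a11, the main CYP3A enzyme of mouse liver, which had no call in the fit used throughout. Each is printed 5′ to 3′ on the strand of its gene with the 9 bases in capitals. They end 37 bases before the start in Cyp2c40, 117 in Cyp2c67, 69 in Cyp2c68, 67 in Cyp2c69, 56 in Cyp2c70 and 101 in Cyp3a11, and in Cyp2c68 they overlap a CCAAT sequence. The windows are chr19:39812815-39813064, chr19:39649043-39649292, chr19:39741102-39741351, chr19:39886770-39887019, chr19:40187287-40187536 and chr5:145879855-145880104, all on the minus strand.
Cyp2c40: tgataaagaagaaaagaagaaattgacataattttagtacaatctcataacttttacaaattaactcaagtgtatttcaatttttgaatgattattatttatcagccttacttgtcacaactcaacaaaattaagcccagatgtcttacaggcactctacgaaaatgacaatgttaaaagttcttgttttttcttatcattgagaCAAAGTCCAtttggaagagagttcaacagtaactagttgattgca
Cyp2c67: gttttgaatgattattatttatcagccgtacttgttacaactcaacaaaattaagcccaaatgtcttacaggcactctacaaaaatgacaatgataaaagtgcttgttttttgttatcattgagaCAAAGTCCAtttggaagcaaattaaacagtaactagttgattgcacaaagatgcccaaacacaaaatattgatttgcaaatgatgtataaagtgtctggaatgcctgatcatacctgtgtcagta
Cyp2c68: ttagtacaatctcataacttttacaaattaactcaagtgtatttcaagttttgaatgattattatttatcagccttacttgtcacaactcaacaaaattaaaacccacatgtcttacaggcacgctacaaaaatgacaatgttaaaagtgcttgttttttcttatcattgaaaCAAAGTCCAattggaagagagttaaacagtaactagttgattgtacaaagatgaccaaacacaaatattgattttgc
Cyp2c69: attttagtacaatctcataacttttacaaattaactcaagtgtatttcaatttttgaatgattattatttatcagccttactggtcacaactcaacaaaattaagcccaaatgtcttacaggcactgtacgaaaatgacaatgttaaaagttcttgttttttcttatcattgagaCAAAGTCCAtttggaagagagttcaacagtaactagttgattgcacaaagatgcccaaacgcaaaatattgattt
Cyp2c70: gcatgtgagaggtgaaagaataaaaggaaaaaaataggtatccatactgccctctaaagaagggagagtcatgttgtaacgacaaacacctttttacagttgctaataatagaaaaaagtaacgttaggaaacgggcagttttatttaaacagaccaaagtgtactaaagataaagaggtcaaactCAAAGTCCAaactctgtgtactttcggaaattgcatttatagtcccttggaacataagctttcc
Cyp3a11: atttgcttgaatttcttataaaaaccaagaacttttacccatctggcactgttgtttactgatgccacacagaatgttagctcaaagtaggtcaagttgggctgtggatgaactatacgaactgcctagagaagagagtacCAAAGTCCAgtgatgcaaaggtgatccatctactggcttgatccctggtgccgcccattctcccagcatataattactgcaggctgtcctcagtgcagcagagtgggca

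Cyp2c29 and Cyp2c55 of the same array lack the letters in the window read, and a link between the word and the changes was not tested. The core of the antioxidant response element through which NRF2 acts (TGACNNNGC, both strands) was found in 2 of 16 Gst promoters, those of Gsta3 and Gstm5, and in 10.1% of all promoters. The TATA box (TATAAA, both strands) was found in 15 of 27 P450 promoters against 13.0% of all. Searched likewise, the xenobiotic response element core (GCGTG) was found in 15.4% of member promoters against 28.2% of all. The STAT5 core (TTCNNNGAA) was found in 3.08% against 7.18%, and the CCAAT box in 41.5% against 34.5%.

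In the Cyp3a family, which clears the widest range of drugs, the 4 members were measured at a sum of 3132 ± 604 CPM in CD fed, 2698 ± 932 in CD fasted, 1253 ± 422 in HFD fed and 1788 ± 1000 CPM in HFD fasted livers. Cyp3a11 made up most of it, at 3083, 2089, 2508 and 2080 CPM in CD fed, 1531, 1163, 2965 and 1834 in CD fasted, 637, 391, 862 and 1361 in HFD fed and 333, 1341, 320 and 2285 CPM in HFD fasted libraries. The fed diets did not overlap, yet the spread within groups was wide and the change with HFD in fed mice (-1.59 ± 0.55) did not pass (adjusted p = 0.089). It was called by DESeq2, with only the 2 groups compared, and without HFD fasted 4. Cyp3a13 went the other way, with a rise from 129 ± 17.4 to 175 ± 26.3 CPM with fasting in CD (0.44 ± 0.12, 0.0154) and to 177 ± 19.3 CPM with HFD in fed mice (0.46 ± 0.12, 0.0311). The former call was lost without CD fed 2 or CD fasted 4 (up to 0.0578) and the latter without CD fed 2 or 3 or HFD fed 1, 3 or 4 (up to 0.104).

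Cyp3a25 and Cyp3a59 moved together. Cyp3a59 was at 35.8, 14.7, 24.2 and 20.0 CPM in CD fed and at 27.4, 16.1, 34.3 and 46.3 CPM in CD fasted libraries, and in HFD at 5.61, 2.71, 8.37 and 6.86 CPM fed and at 17.9, 38.6, 10.6 and 24.03 CPM fasted. HFD fed livers were below all others without overlap. It was lower with HFD in fed mice by 2.01 ± 0.42 (adjusted p = 0.0106) and rose with fasting in HFD by 1.95 ± 0.42 (0.0121). Cyp3a25 was at 687, 436, 568 and 466 CPM in CD fed and at 656, 418, 769 and 634 CPM in CD fasted libraries, and in HFD at 304, 192, 347 and 185 CPM fed and at 464, 698, 346 and 397 CPM fasted. It changed in the same 2 comparisons, by -1.07 ± 0.26 (0.021) and 0.89 ± 0.26 (0.0417), and HFD fasted 3 overlapped the HFD fed group. The former call was lost without CD fed 1 or HFD fed 2 or 4 (adjusted p up to 0.0581), and the latter in 8 of 16 refits without 1 library (up to 0.121, without HFD fasted 2). Transcripts of the pair share 6.79% and 7.39% of windows.

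Because the pair changed in the same comparisons, its promoters are shown side by side. Set with a shift of 1 base, 238 of 249 paired bases were identical (95.6%). The 11 bases that differ, and the unpaired base at an end, are in capitals. The windows are chr5:146009619-146009868 on the minus strand and chr5:146079008-146079257 on the plus strand (GRCm38.p6), 5′ to 3′ toward the start.
Cyp3a25: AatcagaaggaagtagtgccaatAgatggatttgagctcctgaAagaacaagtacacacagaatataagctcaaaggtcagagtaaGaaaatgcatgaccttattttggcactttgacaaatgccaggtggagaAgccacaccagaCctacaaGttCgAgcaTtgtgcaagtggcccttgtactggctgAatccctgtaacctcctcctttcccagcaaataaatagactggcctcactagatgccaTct
Cyp3a59: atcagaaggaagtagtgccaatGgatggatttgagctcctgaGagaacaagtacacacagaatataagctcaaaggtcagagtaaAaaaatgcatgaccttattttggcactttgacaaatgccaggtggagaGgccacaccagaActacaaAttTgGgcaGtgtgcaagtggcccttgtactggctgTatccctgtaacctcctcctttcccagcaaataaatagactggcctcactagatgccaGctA

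Of the smaller P450 families, Cyp1a2, which metabolises caffeine and aromatic amines, fell with fasting in CD from 465 ± 158 to 152 ± 33.7 CPM (-1.62 ± 0.38, adjusted p = 0.00619) and was at 263 ± 100 and 239 ± 110 CPM in HFD with no call. Cyp2f2, the enzyme that activates naphthalene, fell in CD from 1407 ± 134 to 887 ± 183 CPM (-0.67 ± 0.15, 0.005). Its diet change in fed mice, -0.50, did not pass, although the groups were apart (953 to 1058 against 1235 to 1553 CPM). It was called there by DESeq2, with only the 2 groups compared, and without CD fasted 2 or HFD fasted 3. Cyp2e1, which oxidises ethanol, acetone and small solvents, was at 4044, 6257, 6399 and 6312 CPM in CD fed and at 8759, 8838, 11598 and 9419 CPM in CD fasted libraries. In HFD it was at 8757, 8803, 8771 and 4349 CPM fed and at 11369, 14122, 10692 and 6619 CPM fasted. It rose in CD without overlap (0.75 ± 0.25, 1.68-fold, adjusted p = 0.0387), and in HFD the change of 0.48 ± 0.25 did not pass (0.24), with both libraries numbered 4 the lowest of their groups. The diet change in fed mice was 0.41 ± 0.25 (0.34), and it was called without those libraries. The Cyp2e1 call was lost without any 1 of the 8 CD libraries (adjusted p up to 0.111, without CD fed 1) and with no count filter (0.0506). Cyp2j9 was at 22.5, 13.8, 14.1 and 10.6 CPM in HFD fed and at 7.92, 7.59, 8.74 and 4.56 CPM in HFD fasted libraries, and in CD at 12.2, 8.20, 8.98 and 8.57 CPM fed and at 8.65, 6.34, 10.2 and 7.31 CPM fasted. It fell in HFD (-1.08 ± 0.24, 0.0123), where the groups did not overlap. For the diet in fed mice Cyp2j9 had no call in the fit used throughout. It was called there by DESeq2, with total counts as the scaling, with a replicate block and without both HFD libraries numbered 4.

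The Cyp2d family, 6 genes on chromosome 15, had 0 calls in any comparison by edgeR with TMM scaling and the filter used throughout. At an unadjusted p under 0.05 there were 2 for fasting in CD, 1 for fasting in HFD, 1 for the diet in fed mice and 0 for the diet in fasted mice. By DESeq2, Cyp2d26 and Cyp2d40 passed with fasting in CD and Cyp2d26 with fasting in HFD. By edgeR Cyp2d26 passed with fasting in CD when only the 2 groups were compared, at a mean count of at least 100, and without HFD fasted 2 or 4, and with fasting in HFD with total counts as the scaling, at that count limit, and without HFD fasted 4. Cyp2d40 passed with fasting in CD without CD fed 1. Cyp2d9, a male-biased steroid hydroxylase, had the highest mean CPM of the family over all libraries. Per kilobase of merged exon its level in CD fed livers (450.2 ± 130) was within its SD of those of Cyp2d26 (420.5 ± 34.2) and Cyp2d10 (415 ± 59.2). It was at 1196 ± 347, 1518 ± 183, 1042 ± 437 and 952 ± 388 CPM in CD fed, CD fasted, HFD fed and HFD fasted livers. Cyp2j5 (645 ± 30.6, 506 ± 102, 594 ± 70.5 and 522 ± 91.2 CPM) and Cyp2u1 (24.3 ± 3.97, 15.3 ± 8.99, 20.0 ± 4.51 and 15.9 ± 3.55 CPM), both fatty acid hydroxylases, had no call by edgeR with TMM scaling and all libraries, or by DESeq2. With fasting in CD, Cyp2u1 was called by limma-voom and without CD fasted 1, which stood at 28.7 CPM against 9.71 to 11.6 CPM in the other 3 libraries of its group. Cyp2j5 was called there with total counts as the scaling and without CD fasted 3.

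**Figure D3:**
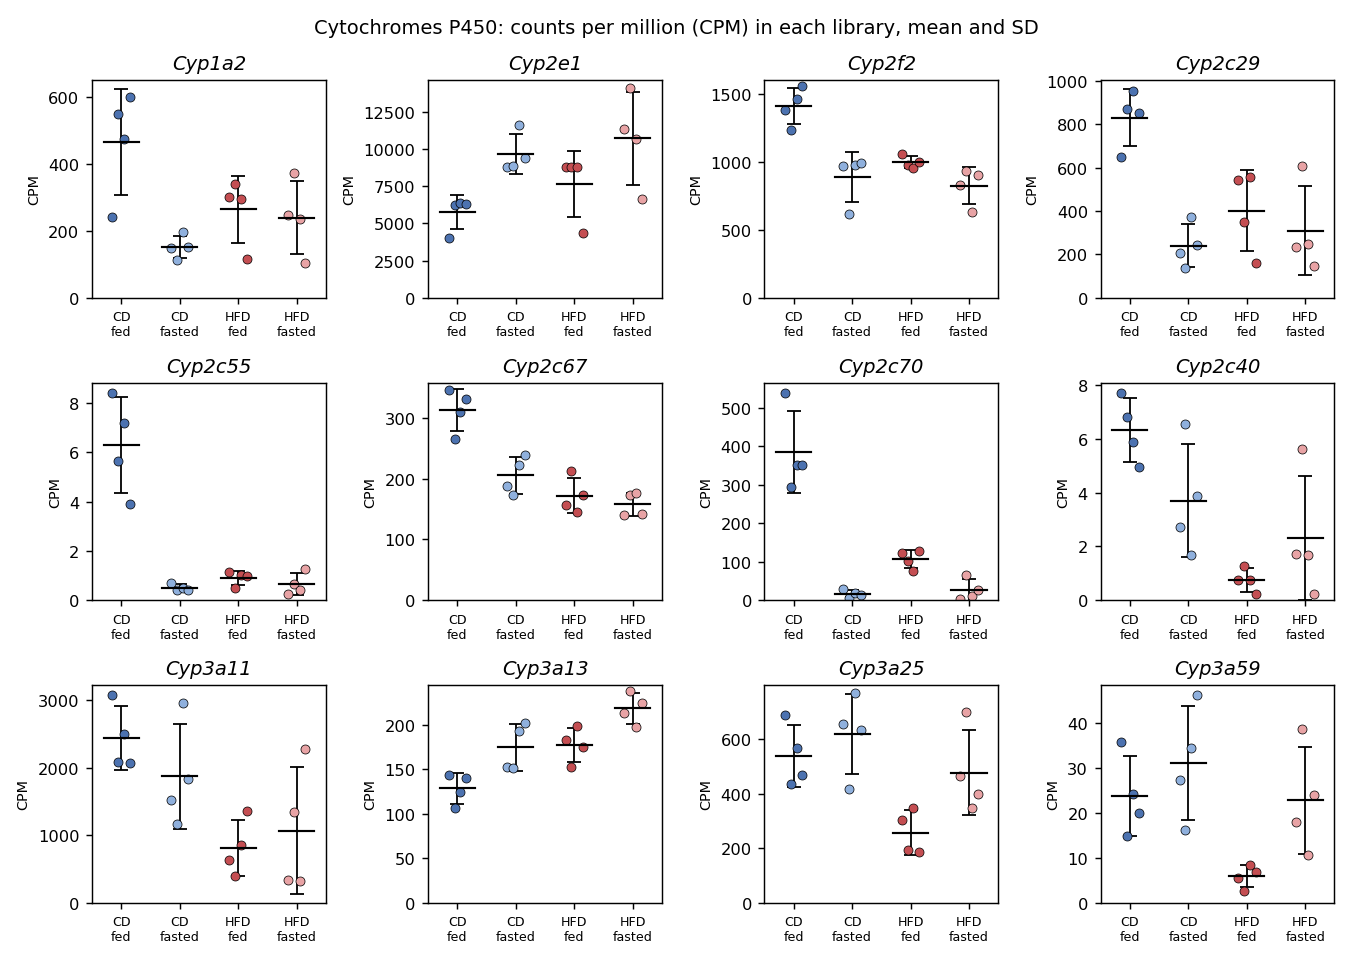
CPM (y axis, from 0) of 12 P450 genes in each of the 16 libraries by group (x axis); points are libraries in the order 1 to 4, horizontal lines group means and bars ± 1 SD (n = 4). Cyp2c55 and Cyp2c70 are high in CD fed livers and low with fasting or HFD, HFD fed livers are lowest for Cyp3a25 and Cyp3a59, and Cyp2e1 falls short in both HFD libraries numbered 4.

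Of the 18 Ugt genes, 4 fell and 1 rose with fasting in CD, a share near the 25.2% of all genes, and 2 fell with fasting in HFD, where 8.86% of all genes were called. HFD lowered 4 in fed mice, against 4.22% of all genes, and 3 in fasted mice, against 4.65%. Those 3 were most of the 5 members called with HFD in fasted mice. Their summed levels were 3171 ± 387, 2796 ± 294, 2859 ± 497 and 2519 ± 322 CPM in CD fed, CD fasted, HFD fed and HFD fasted livers. The changes lay mostly in the Ugt2b genes on chromosome 5, which conjugate steroids and bile acids. Ugt2b38, a male-biased member, was at 45.2, 32.6, 48.3 and 43.1 CPM in CD fed and at 32.5, 24.6, 33.3 and 26.7 CPM in CD fasted libraries, and in HFD at 29.1, 32.5, 27.9 and 19.4 CPM fed and at 18.8, 16.4, 14.2 and 12.6 CPM fasted. It was the lone member called in all 4 pairwise comparisons, each time lower in the fasted or HFD group: by 0.53 ± 0.17 and 0.81 ± 0.17 with fasting in CD and HFD (adjusted p = 0.0289 and 0.00936), and by 0.63 ± 0.17 and 0.92 ± 0.17 with HFD in fed and fasted mice (0.0308 and 0.00724). The CD fasting call and the fed diet call were lost in 5 and 6 of 16 refits without 1 library (up to 0.0882, without CD fasted 2, and 0.078, without CD fed 3).

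Ugt2b1 was at 382, 372, 505 and 473 CPM in CD fed and at 254, 170, 253 and 280 CPM in CD fasted libraries, and in HFD at 281, 211, 204 and 155 CPM fed and at 114, 211, 149 and 111 CPM fasted. CD fed livers were the highest without overlap, and it fell with fasting in CD by 0.86 ± 0.22 (adjusted p = 0.0104) and with HFD in fed mice by 1.03 ± 0.22 (0.0115). Ugt2b5, the most abundant Ugt, had 618, 515, 727 and 589 CPM in CD fed, 629, 469, 610 and 556 in CD fasted, 647, 602, 614 and 413 in HFD fed and 419, 389, 419 and 335 CPM in HFD fasted libraries. It was lower in the last group alone, by 0.54 ± 0.15 against HFD fed (adjusted p = 0.0317) and by 0.54 ± 0.15 against CD fasted livers (0.0354), and HFD fed 4 overlapped the former. Those 2 calls were lost in 7 and 6 of 16 refits without 1 library (up to 0.102, without HFD fed 1, and 0.105, without HFD fasted 4). Both were also lost with only the 2 groups compared, and the second with total counts as the scaling (adjusted p up to 0.0617 and 0.0737). Ugt2b35 was lower with HFD in fed mice by 0.58 ± 0.16 (0.0441), a call lost in 12 of 16 refits (up to 0.124, without CD fed 3).

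Ugt2b37 behaved unlike its neighbours. It was at 3.04, 10.9, 0.492 and 20.0 CPM in CD fasted libraries 1 to 4 and at 1.40, 0.352, 1.81 and 1.41 CPM in CD fed libraries, and in HFD at 2.50, 1.25, 1.05 and 1.84 CPM fed and at 0.564, 0.725, 1.30 and 0.404 CPM fasted. The high values were those of CD fasted 2 and 4, and CD fasted 3 lay inside the CD fed range. The rise with fasting in CD was 2.79 ± 0.76 (adjusted p = 0.0153; 1.93 and 0.068 without CD fasted 4), and the fall with HFD in fasted mice 3.52 ± 0.81 (0.018; -2.67 without CD fasted 4, and 0.0583 without HFD fasted 4). Neither was called by limma-voom or with only the 2 groups compared, and the latter was also lost without both HFD libraries numbered 4 (adjusted p up to 0.185 and 0.192). Cux2, a transcription factor known for its female-biased expression in mouse liver, was at 0.354, 6.70, 2.40 and 9.81 CPM in CD fasted libraries 1 to 4 and at 0.162 to 0.968 CPM in the other 12, so that CD fasted 2 and 4 were the highest of all for both genes.

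In the Ugt1a locus on chromosome 1 (88055388 to 88220002) each gene has its own first exon and the rest is common, so that the counting decides how reads are divided. Ugt1a1, the bilirubin transferase and the leading member, was at 183 ± 32.9, 255 ± 47.4, 196 ± 43.1 and 273 ± 54.1 CPM in CD fed, CD fasted, HFD fed and HFD fasted livers, with no call by edgeR, while DESeq2, edgeR with a replicate block and edgeR without HFD fed 4 called it with fasting in CD. Ugt1a5 was at 24.4, 72.4, 52.2 and 24.96 CPM in CD fed and at 14.5, 10.2, 19.2 and 10.9 CPM in CD fasted libraries, and in HFD at 17.1, 11.4, 12.8 and 7.69 CPM fed and at 8.07, 16.2, 15.3 and 4.46 CPM fasted. CD fed livers were above the others without overlap, and it fell with fasting in CD by 1.67 ± 0.41 (adjusted p = 0.00888) and with HFD in fed mice by 1.83 ± 0.42 (0.0162, and 0.0626 without CD fed 2). Ugt1a6b fell with fasting in CD by 0.48 ± 0.15 (0.0311), lost without CD fed 2, 3 or 4 or CD fasted 1 or 2 (up to 0.0965). Ugt2a3 (255 ± 41.7 CPM in CD fed livers) and Ugt3a2 (351 ± 46.8 CPM), the leading members of their families, were not called in any comparison.

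Of the 7 sulphotransferases 1 was called with fasting in CD, a smaller share than the 25.2% of all genes. Sult1a1, which sulphates phenols such as paracetamol, rose with fasting in CD from 247 ± 29.1 to 405 ± 77.3 CPM (0.71 ± 0.18, adjusted p = 0.0108), with groups that did not overlap, and was at 242 ± 58.5 and 282 ± 58.7 CPM in HFD. In the other 3 pairwise comparisons 0 passed by edgeR, with 2 each at an unadjusted p under 0.05. DESeq2 called 1 with fasting in HFD, Sult2a7, and 1 with HFD in fasted mice, Sult1a1, and limma-voom 0. With total counts as the scaling edgeR called Sult1c2, higher with HFD in fasted mice. Sult2a8, which sulphates bile acids, was at 572 ± 49.3, 587 ± 92.7, 484 ± 149 and 522 ± 174 CPM in CD fed, CD fasted, HFD fed and HFD fasted livers. Sult5a1 was at 7.86 ± 3.15, 7.45 ± 2.40, 4.87 ± 0.824 and 5.20 ± 1.16 CPM.

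**Figure D4:**
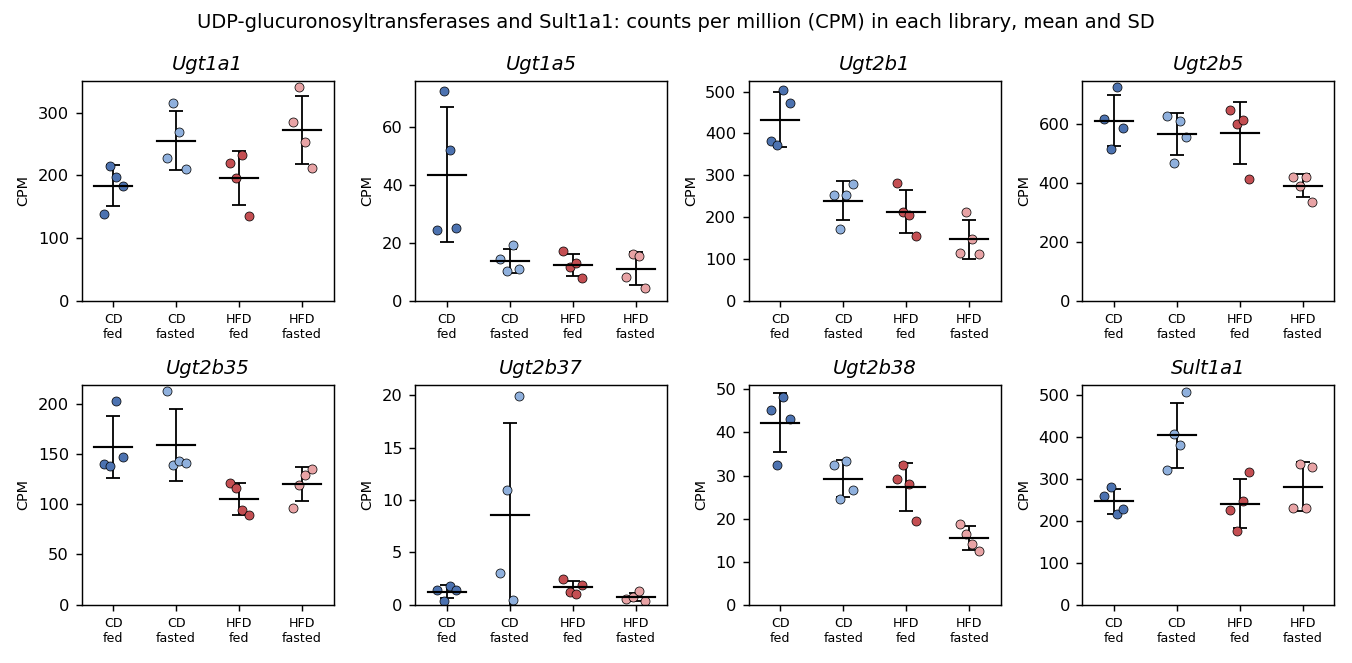
CPM (y axis, from 0) of 7 glucuronosyltransferase genes and Sult1a1 in each of the 16 libraries by group (x axis); points are libraries in the order 1 to 4, horizontal lines group means and bars ± 1 SD (n = 4). Ugt2b38 is lowest in HFD fasted livers (12.6 to 18.8 CPM), and Ugt2b37 is high in 2 CD fasted libraries, at 10.9 and 20.0 CPM.

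The fasting response was then set side by side between the diets, which share no library. Of the 29 members called in CD, 7 were also called in HFD, all in the same direction (Cyp2c39, Gstm1, Gstm6, Gstm7, Gstp1, Gstt2 and Ugt2b38), and 4 were called in HFD and not in CD. Over all genes tested 25.2% were called with fasting in CD and 8.86% in HFD, and the share called in both was not counted. Of the 29, 26 had the larger change in CD, as could happen from choosing them there. Across all 74 members 36 had negative and 14 positive log2 changes in both diets, 43 had the larger change in CD, and Pearson's r between the 2 sets of changes was 0.47 (across genes, which are not independent replicates).

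The difference itself was called for 3 members (4.05% against 2.59% of all genes, of which 1.23% positive and 1.36% negative), in each a positive difference (HFD minus CD). It was 3.15 ± 0.57 for Cyp2c55 (adjusted p = 0.0132), 1.40 ± 0.27 for Gstm2 (0.0173) and 1.09 ± 0.21 for Gstp3 (0.0173). Cyp2c55 had a log2 change with fasting of -3.61 in CD and of -0.47 in HFD, Gstm2 of -1.18 and 0.22, and Gstp3 of -1.30 and -0.21. In each case the HFD fed livers already stood below the CD fed livers, as given above, and the interaction rests on the same 16 libraries as those comparisons. Gstm3 (2.25 ± 0.62, 0.0616) and Ugt2b37 (-3.94 ± 1.10, 0.0658) did not pass. Both passed by DESeq2, the former also without HFD fasted 1 and the latter without CD fasted 3. In all, 55 members had a positive and 19 a negative interaction, with a median of 0.32 against 0.00 over all genes.

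**Figure D5:**
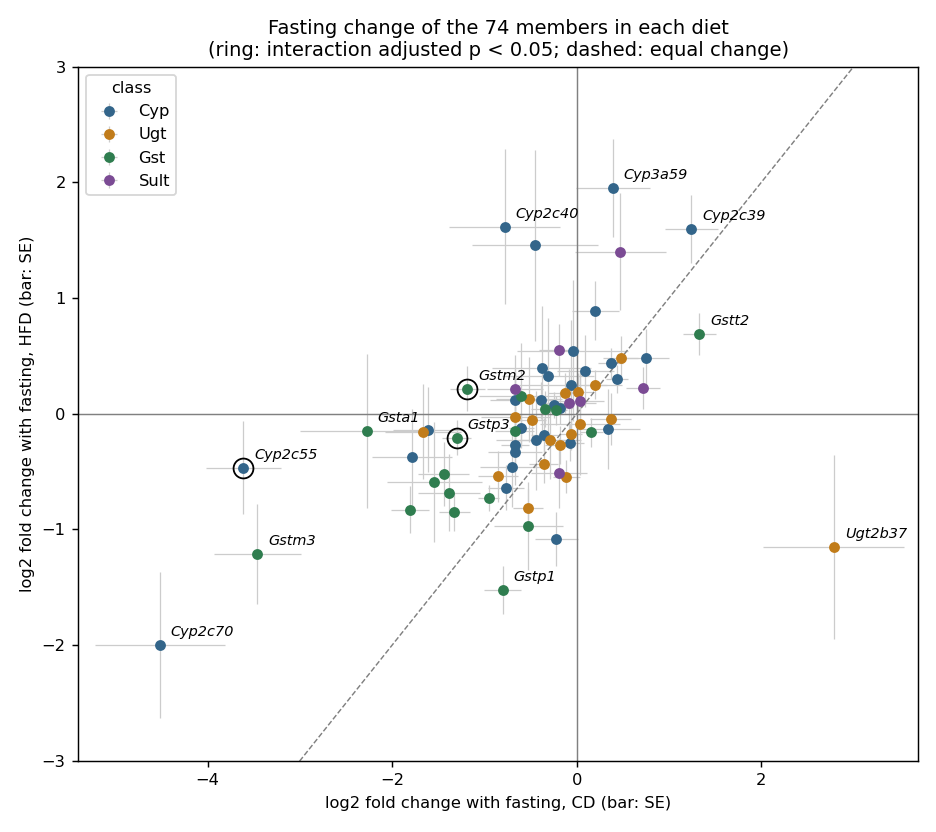
Log2 fold change with fasting in CD (x axis) and in HFD (y axis) of the 74 members, with bars of ± 1 SE; colours give the class, the dashed line marks equal change and rings mark the 3 members with an interaction adjusted p under 0.05. Cyp2c55, Gstm3 and Cyp2c70 lie far to the left, with smaller changes in HFD, and Gstp1 lies below the line.

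The partners and cofactor supply of these enzymes were read from a list of 18 genes. Fasting raised 3 and lowered 4 in CD, where 25.2% of all genes were called, and raised 1 and lowered 2 in HFD (8.86% of all). The diet raised 1 and lowered 3 in fed mice (7.50% of all), and 0 passed in fasted mice by edgeR, DESeq2 or limma-voom (2 at an unadjusted p under 0.05). Por, the reductase that passes electrons to every microsomal P450, had 238, 424, 305 and 285 CPM in CD fed, 316, 932, 799 and 791 in CD fasted, 648, 668, 945 and 825 in HFD fed and 872, 754, 645 and 617 CPM in HFD fasted libraries. CD fed livers were below both HFD groups, and CD fasted 1 lay among them. Por rose with fasting in CD by 1.18 ± 0.27 (adjusted p = 0.00484) and with HFD in fed mice by 1.30 ± 0.27 (0.00889). Cytochrome b5 reductase (Cyb5r3) went the other way in the same comparisons, by -1.50 ± 0.13 (5.78e-06) and -0.87 ± 0.13 (0.0015), from 599.5 ± 82.2 CPM in CD fed livers. Cyb5a, the microsomal cytochrome b5, rose with fasting in HFD by 0.45 ± 0.13 (0.0415), and Cyb5b, the mitochondrial one, fell with fasting by 1.61 ± 0.21 in CD (8.06e-05) and 0.69 ± 0.20 in HFD (0.0446). Papss1, which makes the sulphate donor of the Sult enzymes, fell by 1.25 ± 0.10 with fasting in CD (1.47e-06), by 0.50 ± 0.09 in HFD (0.00588) and by 0.59 ± 0.09 with HFD in fed mice (0.0019), and Ugdh, which makes the glucuronic acid donor of most Ugt enzymes, by 0.53 ± 0.14 with fasting in CD (0.0111) and 0.51 ± 0.14 with HFD in fed mice (0.034). Alas1, the limiting enzyme of haem synthesis, rose with fasting in CD by 1.91 ± 0.54 (0.0186). The genes of glutathione synthesis, Gclc, Gclm and Gss, and its reductase Gsr had 0 calls in the 4 comparisons by edgeR, DESeq2 or limma-voom, with 1 at an unadjusted p under 0.05 for fasting in HFD and 2 for the diet in fed mice.

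Of 17 receptors and regulators, 3 rose and 2 fell with fasting in CD, 2 rose and 1 fell with fasting in HFD, and 1 fell with HFD in each feeding state. The 5 calls with fasting in CD were a share near the 25.2% of all genes, and so was 1 of 17 near the 7.50% and 7.70% of all genes called for the diet in fed and fasted livers. With fasting in HFD, 8.86% of all genes were called. Limma-voom called 2 there. For the diet in fasted livers it called 0, with 3 at an unadjusted p under 0.05 by edgeR. CAR (Nr1i3) rose with fasting in both diets, from 212 ± 58.3 to 470.5 ± 95.3 CPM in CD (1.15 ± 0.34, adjusted p = 0.0215) and from 278 ± 87.9 to 607 ± 294 CPM in HFD (1.12 ± 0.34, 0.0498), where the groups overlapped. PXR (Nr1i2) was at 93.9 ± 7.41, 116 ± 21.8, 121 ± 18.7 and 122 ± 19.7 CPM in CD fed, CD fasted, HFD fed and HFD fasted livers, and Ahr at 33.7 ± 7.09, 34.2 ± 5.35, 39.8 ± 10.99 and 38.3 ± 6.09 CPM, neither called by edgeR or DESeq2. NRF2 (Nfe2l2) fell with fasting in CD from 86.1 ± 4.12 to 64.0 ± 12.2 CPM (-0.43 ± 0.11, 0.00993), and Keap1, which holds it in check, rose by 0.26 ± 0.06 in CD (0.00704) and 0.21 ± 0.06 in HFD (0.0465). Stat5b, which relays growth hormone signals, fell with fasting in CD by 0.67 ± 0.13 (0.0016) and with HFD in fed mice by 0.51 ± 0.13 (0.0242). Cux2 rose with fasting in CD by 3.73 ± 0.72 (0.00177), on the libraries given above, and was lower with HFD in fasted mice by 3.33 ± 0.71 (0.0128). Hnf4a fell by 0.55 ± 0.10 with fasting in HFD (0.006).

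Member genes were also counted by the receptor they are known to respond to, beside the 11.5%, 4.07%, 4.22% and 4.65% of all genes called lower with fasting in CD and in HFD and for the diet in fed and in fasted livers. Of 8 known NRF2 targets, all Gst genes, 7 fell with fasting in CD (median log2 change -1.35) and 2 in HFD, and HFD lowered 2 in fed against 1 in fasted mice. In the whole Gst class 12 of 18 fell with fasting in CD (median -1.07), so this list is not told apart from its class. Gclc, Gclm, Gsr and Nqo1 were outside the list. EdgeR called none of them with fasting in CD, and DESeq2 called Nqo1 alone. Of 14 known CAR and PXR targets, 6 fell with fasting in CD (median -0.35, the same as over all 74 members, of which 23 fell), 1 in HFD, and 2 were lower with HFD in fed mice. Of 3 known Ahr targets Cyp1a2 fell with fasting in CD. Of 5 male-biased genes (Cyp2d9, Ugt2b1, Ugt2b38, Gstp1 and Gstp2) 3 fell with fasting in CD, and 2 were lower in each of the other 3 comparisons. The lists overlap, since Gsta1, Gstm1 and Gstm3 are in the first 2 of them, and Gstp1 is in the first and the last.

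Other genes of drug metabolism and transport, 20 in all, gave 1 rise and 2 falls with fasting in CD, 2 rises and 1 fall in HFD, 1 of each for the diet in fed mice and 2 rises for it in fasted mice. The 3 calls with fasting in CD were a smaller share than the 25.2% of all genes, and the shares of all genes in the other 3 were 8.86%, 7.50% and 7.70%. Ces2a, a carboxylesterase that opens ester drugs, had 424 ± 12.3 CPM in CD fed, 189 ± 64.9 in CD fasted, 119 ± 28.002 in HFD fed and 105 ± 47.4 CPM in HFD fasted livers, and was lower with HFD in fed mice by 1.83 ± 0.29 (adjusted p = 0.0018). The uptake transporter Slco1a1 fell with fasting by 1.53 ± 0.35 in CD (0.00546) and 1.68 ± 0.35 in HFD (0.0104), and its neighbour Slco1a4 rose in HFD by 1.87 ± 0.46 (0.0218). Fmo5 was higher with HFD in fed and fasted mice, by 0.78 ± 0.17 (0.0132) and 0.69 ± 0.17 (0.0247). Ephx2, the soluble epoxide hydrolase, rose with fasting in CD by 1.16 ± 0.17 (0.000218), and Abcb1a, an efflux pump, was higher with HFD in fasted mice by 1.24 ± 0.31 (0.0254).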

How the data were processed

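Polyadenylated liver RNA of 16 samples was sequenced as paired reads, and per the labels the submitters' processing notes list CASAVA 1.8.4, TopHat2 2.0.11, featureCounts and the builds mm10 and GRCm38. The methods add TopHat2's setting for a first-strand library and an annotation taken from Illumina iGenomes. The annotation's release and how featureCounts treated strand and read pairs are not given in the sources used here. The deposited values are raw counts per Ensembl gene. They were not normalized by the authors. All 16 sample columns were used.

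Counts were fitted with edgeR 4.0.16 (R 4.3.3): filterByExpr (15075 genes), TMM scaling, a coefficient for each group, all 16 libraries fitted together, 12 residual degrees of freedom, quasi-likelihood F tests, and Benjamini-Hochberg adjustment over all genes tested, with a call at an adjusted p under 0.05. Calls are from this fit unless another is named. The SE of a log2 change is its size divided by the square root of F. CPM use TMM-scaled totals. The fit was tested on simulated data. Depth was 41364448 to 57583153 counts, so 3 counts equal 0.0536 to 0.0767 CPM. This limit covers counting error only. The lowest chi-square per gene within any of 24 pairs of libraries of a group was 35.8, so that no library was a copy of another. Alternatives were DESeq2 1.42.0, limma-voom (limma 3.58.1), other scalings and filters, fits of 2 groups alone, a replicate block, and leaving out libraries.

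Named were each called member up to 25 per comparison, the leading member of each family and up to 6 companion genes per comparison. Values in every library are given for up to 6 called members of largest change in each pairwise comparison with a mean of at least 100 counts. Gsta1 is among these with fasting in CD, and Cyp2c29, which comes next there, is given too. Cyp2e1, Cyp3a11, Gsta1, Gstm2, Por and Cux2 were chosen after their values were seen. The members and lists were chosen with earlier results of these data known. Promoters are from RefSeq (GRCm38.p6) and matched 65 of 74 members by symbol or gene ID.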

Additional observations from a re-analysis of the deposited data

Results flagged for a closer look

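In 8 of 152 groups of 4 libraries, over the 38 members called in any pairwise comparison, 1 library lay far from the other 3. The gap to its nearest neighbour is given as a share of the group's range, with 0.829 as the critical value for 4 libraries, and chance alone flags about 1 in 20 groups. Cyp2e1 was low in CD fed 1 (4044 CPM, nearest 6257, share 0.94) and in HFD fed 4 (4349 CPM, nearest 8757, share 0.99). Both were also the lowest of their groups in the summed pericentral markers, and the part of this in the Cyp2e1 values was not tested. Cyp2f2 was low in CD fasted 2 (614 CPM, nearest 967, share 0.939) and Cyp2c23 in HFD fed 3 (219 CPM, nearest 287, share 0.881). Cyp2c39 was high in HFD fasted 2 (6.44 CPM, nearest 3.90, share 0.958) and Gstp3 in CD fed 2 (21.2 CPM, nearest 14.9, share 0.877). Ugt2b35 was high in CD fed 3 (203 CPM, nearest 147, share 0.86) and in CD fasted 1 (212 CPM, nearest 143, share 0.956).

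The fasting change differed between the diets by the interaction test for 3 members. HFD minus CD, it was 3.146 for Cyp2c55 (adjusted p = 0.0132), 1.401 for Gstm2 (0.0173) and 1.095 for Gstp3 (0.0173) on the log2 scale, each from edgeR over 16 libraries.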

How the results depend on the processing

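Across the 65 calls of the 5 comparisons, 1621 refits under an alternative gave the same call in 1459 and lost it in 162, and none turned its direction. With fasting in CD the count of members called was 28 to 33 over the alternatives, with fasting in HFD 9 to 15 and with HFD in fed mice 16 to 22. With HFD in fasted mice it was 5, against 9 with DESeq2 (which added Cyp2c67, Gsta1, Sult1a1 and Ugt2b1), 3 with limma-voom and 1 with only the 2 groups compared. The interaction count of 3 became 7 with DESeq2, which added Cyp1a2, Gstm3, Gstm6 and Ugt2b37. The cause was not tested. Leaving out each library in turn gave 22 to 30 calls with fasting in CD, 7 to 13 in HFD (7 without HFD fed 1), 11 to 18 with HFD in fed mice (11 without CD fed 1 or 2 or HFD fed 1, 3 or 4), 1 to 7 with HFD in fasted mice (1 without HFD fasted 4, 3 without CD fasted 3 or 4) and 3 to 6 for the interaction (6 without HFD fasted 1). Leaving out both HFD libraries numbered 4, chosen after seeing the data, gave 33, 11, 17, 4 and 3. With the replicate block the counts were 30, 11, 16, 5 and 3, and the calls of Gstp3 and Ugt2b35 with HFD in fed mice were lost. Of 24 pairs of same-numbered libraries 9 correlated above 0.1 (-0.299 to 0.715) and 4 of 16 libraries correlated best with their own number, so the numbers were not taken as pairs. The value of 0.715 was that of HFD fed 4 with HFD fasted 4. CD fed 1 correlated with these libraries at 0.402 and 0.395. What these libraries share was not tested. Depth limits Ugt1a2 and Ugt1a10 most, at under 20 counts a library on average.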
